A study of Mus musculus with 8 samples.

Results

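Cholesterol handling was read in iWAT (inguinal white adipose tissue), a fat depot under the skin, through 30 genes of sterol synthesis, its control by SREBP2, uptake, transport, esterification and export. They were taken by gene name from a table of 54532 genes, and 29 of the 30 reached a mean of 0.5 FPKM (fragments scaled by gene length and library size) over all 8 libraries. Sqle, at a mean of 1.54 FPKM, was the lowest gene inside that limit, and Fdps, at 0.215 FPKM, fell outside it. The libraries came from male mice fed a high-fat diet. The wild-type group (WT, n = 4) carried no named allele, and in the knockout group (KLF10AKO, n = 4) the zinc-finger factor KLF10 was deleted in adipocytes. The labels give no age, no promoter or Cre line, and no link from libraries to animals. P-values therefore cover only the spread among these 8 libraries, which may be technical.

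A cell makes cholesterol from acetyl-CoA through mevalonate, squalene and lanosterol. When membranes of the endoplasmic reticulum are rich in sterol, INSIG proteins hold SCAP and the factor SREBP2 there, and when sterol is low SREBP2 is cut and switches on synthesis and uptake genes, INSIG1 among them. Oxysterols act through LXR receptors to raise the export pumps ABCA1 and ABCG1 and MYLIP, a ubiquitin ligase that removes LDL receptors. Fat cells make little sterol for their size but store much of the body's free cholesterol around the lipid droplet.

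The libraries did not differ in genotype alone. Klf10, the targeted gene, stood at 18.2 ± 2.09 FPKM in WT, against 9.60 ± 0.157 in KLF10AKO (SD, n = 4 each), a value over all annotated exons and over all cells of the pad. Its log2 change was -0.88 (limma adjusted p = 8.96e-06) and turned to 0.71 after marker scaling (adjusted p = 3.80e-04), so this check of the label also followed the scaling. Recovered reads ran from 15537863 to 17499132 per library. All 16 adipocyte markers were lower in KLF10AKO (median log2 change -1.74, summed level 15794 to 17991 FPKM in WT, against 5352 to 6726 in KLF10AKO). All 10 B cell markers were higher, with sums of 3.01 to 4.72 and 1212 to 1796 FPKM, and so were all 10 T and NK cell markers, with sums of 5.31 to 8.19 and 331 to 486. Skeletal muscle markers rose in 9 of 10 cases, with sums of 166 to 219 FPKM in WT, 4509 to 10520 in KLF10AKO replicates 1 to 3 and 35.1 in replicate 4. Of 10 macrophage markers 1 rose and 6 fell (sums 316 to 360 and 258 to 303), and of 6 markers of lipid-associated macrophages 1 rose and 5 fell (sums 198 to 252 and 71.2 to 157). Of 6 endothelial markers 5 fell (sums 176 to 201 and 108 to 115), and of 6 fat pad progenitor markers 2 rose and 4 fell (sums 245 to 269 and 259 to 302). All 9 placental trophoblast markers were at 0 in every KLF10AKO library, whereas they summed to 27.9 to 71.9 FPKM in WT, where only Cts7 was at 0. In a bulk sample, fewer cells of a type and less RNA per cell cannot be told apart. The part of these shifts in the results for the sterol genes was not tested, and each change is therefore also given after scaling every library to the 16 adipocyte markers.

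In KLF10AKO iWAT most enzymes of cholesterol synthesis had a lower deposited FPKM, while the master factor gene Srebf2 had a higher one. Of the 29 sterol genes tested, 18 were lower and 8 higher in KLF10AKO by limma (adjusted p under 0.05), 26 in all. Over all 16012 genes tested, 34.9% were lower and 39.4% higher, 74.3% in all. The median log2 change of the 29 was -0.41, beside 0.05 over all genes tested. After scaling to adipocyte markers the picture turned, with 27 of the 29 higher, 1 lower and a median of 1.03, against 87.4% of all genes higher and 1.25% lower and a median of 1.55. With TPM 9 were higher and 14 lower, where 44% and 25.4% of all genes were, and with quantile normalization 6 and 20, where 30.9% and 44.1% were. With KLF10AKO replicate 4, the library low in muscle markers, as the sole library of its group, 6 were higher and 12 lower, and 32.4% and 29.7% of all genes were. For 25 of the 29 the 4 KLF10AKO values lay entirely above or below the 4 WT values, as they did for 69.2% of all genes tested.

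**Figure D1:**
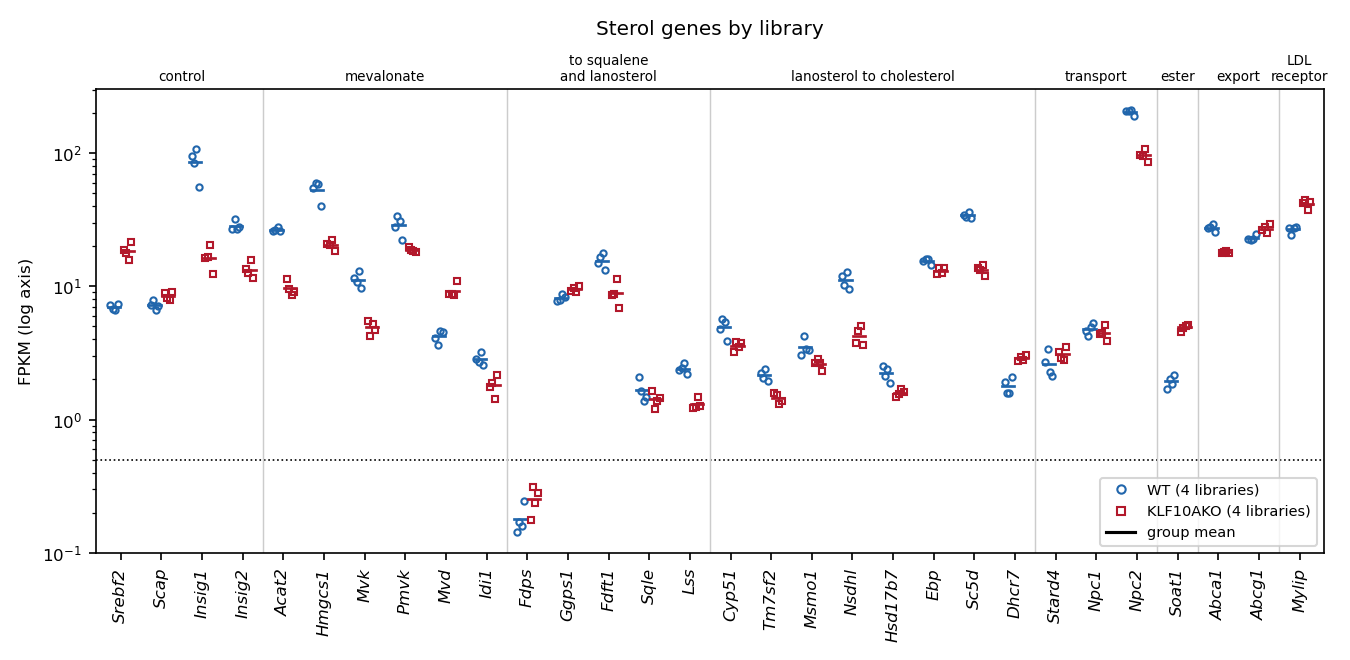
FPKM (log axis) of the 30 sterol genes in each of 4 WT libraries (circles) and 4 KLF10AKO libraries (squares), grouped by role, with group means as bars and the limit of 0.5 FPKM dotted. Npc2 is highest in both groups, at means of 203 and 96.5 FPKM, and Fdps lies under the limit in every library.

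**Figure D2:**
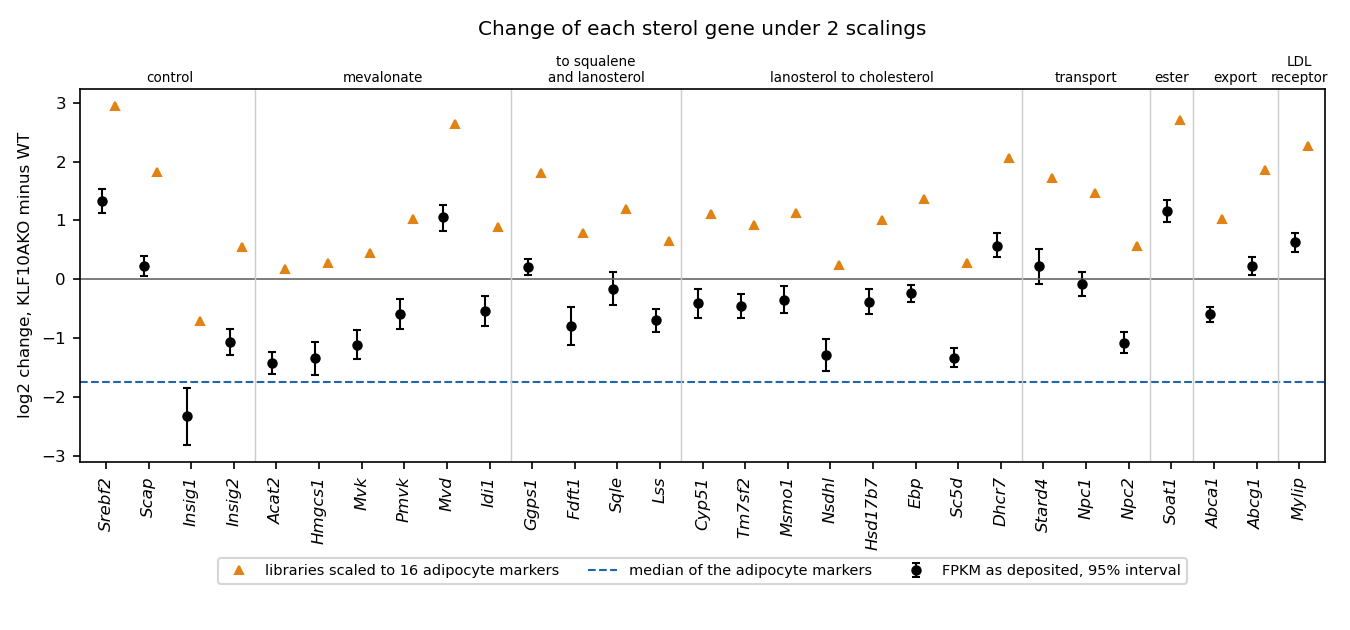
Log2 change (KLF10AKO minus WT) of the 29 tested genes from the deposited FPKM, with 95% intervals (circles), and after scaling each library to 16 adipocyte markers (triangles); the dashed line marks the adipocyte marker median of -1.74. Insig1 at -2.33 lies below that line and the other 28 above it, and Insig1 is the gene whose triangle stays below 0.

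The promoters of 4 genes with opposite changes are shown, Srebf2 and Soat1 being higher and Insig1 and Hmgcs1 lower in KLF10AKO. Each is the window from 250 bases before to 50 after the RefSeq start site (build GRCm38.p6), read on the strand of the gene. Capitals mark the CCAAT box, a site of the factor NF-Y that works beside SREBP at sterol genes, written CCAAT or, on the other strand, ATTGG. In Hmgcs1 they also mark a sterol regulatory element, searched as TCACNCCAC on both strands. The windows are Srebf2 at chr15:82147019-82147318 (plus strand), Soat1 at chr1:156474279-156474578 (minus strand), Insig1 at chr5:28071162-28071461 (plus strand) and Hmgcs1 at chr13:119690101-119690400 (plus strand).
Srebf2: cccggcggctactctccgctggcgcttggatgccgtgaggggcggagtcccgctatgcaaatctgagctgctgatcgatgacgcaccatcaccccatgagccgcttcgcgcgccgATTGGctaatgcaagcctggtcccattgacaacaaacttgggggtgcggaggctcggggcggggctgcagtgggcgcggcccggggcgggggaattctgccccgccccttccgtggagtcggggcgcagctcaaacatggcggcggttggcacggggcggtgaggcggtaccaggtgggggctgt
Soat1: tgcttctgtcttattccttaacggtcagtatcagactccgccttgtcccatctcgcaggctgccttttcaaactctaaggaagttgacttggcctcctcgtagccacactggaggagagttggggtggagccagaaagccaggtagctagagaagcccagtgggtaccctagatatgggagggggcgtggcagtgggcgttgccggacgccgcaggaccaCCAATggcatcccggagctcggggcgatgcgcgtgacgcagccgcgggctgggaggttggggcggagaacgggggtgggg
Insig1: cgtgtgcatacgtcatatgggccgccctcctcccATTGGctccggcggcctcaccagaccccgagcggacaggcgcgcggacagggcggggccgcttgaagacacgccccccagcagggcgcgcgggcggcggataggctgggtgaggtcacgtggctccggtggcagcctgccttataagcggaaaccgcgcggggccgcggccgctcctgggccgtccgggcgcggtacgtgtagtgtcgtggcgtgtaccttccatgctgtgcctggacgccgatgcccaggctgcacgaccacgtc
Hmgcs1: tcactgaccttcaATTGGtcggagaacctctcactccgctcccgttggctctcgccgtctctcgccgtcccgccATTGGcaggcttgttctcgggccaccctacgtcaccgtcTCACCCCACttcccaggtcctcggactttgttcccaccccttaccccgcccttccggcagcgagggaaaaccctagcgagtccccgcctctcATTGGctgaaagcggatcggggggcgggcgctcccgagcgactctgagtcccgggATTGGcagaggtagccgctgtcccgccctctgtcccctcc
Hmgcs1 held 4 CCAAT boxes and the others 1 each. Windows were found for 24 of the 30 genes, and CCAAT stood in a window of 21 of them, beside 41.1% of 27025 genes with a window. It stood in 6 of 7 genes that were higher and 15 of 17 that were lower, so CCAAT was common to both directions. The GC box GGGCGG, which takes Sp and Krüppel-like factors, stood in 22 of the 24 genes and in 38.2% of all genes, on either strand. TCACNCCAC was found in Hmgcs1 alone of the 24, and in 1.44% of all genes, and a strict search of this kind in a window of 300 bases misses looser and more distant elements. No match of one motif overlapped a match of another in the windows of these genes.

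Of the genes that sense and set sterol supply, the factor and the brake moved apart. Srebf2 (ENSMUSG00000022463, mm10 chromosome 15, 82147181 to 82205379, plus strand), which encodes SREBP2, stood at 7.26, 6.82, 6.69 and 7.36 FPKM in WT replicates 1 to 4. In KLF10AKO replicates 1 to 4 it stood at 18.9, 17.8, 15.9 and 21.7 FPKM, so every knockout library was far above every WT library. Srebf2 rose by 1.33 on the log2 scale (standard error 0.0915, 95% interval 1.13 to 1.54, limma adjusted p = 1.83e-06), and by 2.95 after marker scaling. The exact two-sided permutation p of its 8 values was 0.0286, the lowest value that a split of 4 and 4 allows, and the same held for every gene below whose groups did not overlap. The hairpin gene of the microRNA miR-33 lies in an intron of Srebf2 and had 0 reads in all 8 libraries of this poly(A)-selected RNA.

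Insig1 (ENSMUSG00000045294, chromosome 5, 28071363 to 28078662, plus strand) encodes the retention protein whose own gene is an SREBP target. It stood at 94.6, 84.9, 107 and 55.5 FPKM in WT replicates 1 to 4 and at 16.4, 16.7, 20.3 and 12.3 in KLF10AKO replicates 1 to 4. WT replicate 4 was well under the other WT libraries and still above every knockout library. Insig1 fell by 2.33 on the log2 scale, 5.01-fold (standard error 0.212, 95% interval -2.81 to -1.84, limma adjusted p = 1.06e-05). It was the sole one of the 29 that was lower after marker scaling too, at -0.71 (limma adjusted p = 0.00177).

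Insig2 (ENSMUSG00000003721, chromosome 1, 121304353 to 121332589, minus strand), the second retention protein and less dependent on SREBP, stood at 26.8, 32.3, 26.8 and 28.0 FPKM in WT, against 13.4, 12.7, 15.8 and 11.6 in KLF10AKO. The groups were apart. Its log2 change was -1.07 (standard error 0.099, limma adjusted p = 1.21e-05) and turned to 0.54 after marker scaling. Scap (ENSMUSG00000032485, chromosome 9, 110333288 to 110384950, plus strand), the escort of SREBP2, stood at 7.28, 7.88, 6.62 and 7.07 FPKM in WT, against 8.91, 8.23, 7.86 and 9.09 in KLF10AKO. Here the groups touched, KLF10AKO replicate 3 lying just under WT replicate 2. Scap rose by 0.23 (standard error 0.0717, limma adjusted p = 0.0176, exact permutation p = 0.0571), and by 1.82 after marker scaling. Its call was lost with quantile normalization (0.05), without WT replicate 3 (adjusted p = 0.0502), without KLF10AKO replicate 1 (adjusted p = 0.0523) and, at a larger change, with KLF10AKO replicate 4 alone (0.32, adjusted p = 0.0594), all by limma. A gene on the opposite strand overlaps 13.2% of the Scap exon bases.

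Over all genes tested 34.9% were lower and 39.4% higher. Of the 18 enzymes tested on the synthetic route, Ggps1 of a side branch included, 14 were lower, 3 higher and 1 not passing. Their median of -0.49 turned to 0.97 after marker scaling, where the medians over all genes were 0.05 and 1.55. The same shares over all genes stand beside the counts for each stage of the route. In the mevalonate part 5 of 6 fell and 1 rose. Acat2 (ENSMUSG00000023832, chromosome 17, 12942890 to 12960747, minus strand), the cytosolic thiolase that joins acetyl-CoA units, stood at 25.9, 26.7, 28.1 and 25.9 FPKM in the WT libraries and at 11.4, 9.61, 8.69 and 9.13 in KLF10AKO. The WT libraries were nearly alike, and all knockout libraries lay far below them. Its log2 change was -1.42 (standard error 0.0829, limma adjusted p = 7.35e-07), and 0.18 after marker scaling, where it did not pass. Of the 100-base stretches in Acat2 transcripts 28.9% also occur in Acat3, a neighbouring near-copy, so the level of Acat2 is uncertain.

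Hmgcs1 (ENSMUSG00000093930, chromosome 13, 119690379 to 119708260, plus strand), the synthase that makes HMG-CoA, stood at 54.5, 59.9, 58.7 and 40.5 FPKM in the WT libraries and at 20.9, 20.4, 22.4 and 18.4 in KLF10AKO. WT replicate 4 was again the lowest of its group, and the groups did not meet. Its log2 change was -1.34 (standard error 0.125, limma adjusted p = 1.23e-05) and turned to 0.28 after marker scaling (adjusted p = 0.0298). An antisense gene overlaps 12.1% of its exon bases, and the strand setting of the counting is not given in the sources used here.

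Mvk and Pmvk, the kinases that phosphorylate mevalonate in succession, stood at 11.3 ± 1.41 and 28.8 ± 4.86 FPKM in the WT libraries and at 4.94 ± 0.559 and 18.7 ± 0.704 in KLF10AKO (SD, n = 4 each). Their log2 changes were -1.11 and -0.59 (limma adjusted p = 1.33e-05 and 0.00128), and 0.44 and 1.03 after marker scaling. Mvd (ENSMUSG00000006517, chromosome 8, 122433601 to 122443422, minus strand), the decarboxylase that follows them, went the other way. It stood at 4.07, 3.66, 4.66 and 4.54 FPKM in the WT libraries and at 8.79, 8.81, 8.57 and 10.9 in KLF10AKO, every knockout library far above every WT library. Mvd rose by 1.05 (standard error 0.0991, limma adjusted p = 1.37e-05), and by 2.64 after marker scaling. Idi1, the isomerase that readies isoprene units, stood at 2.84 ± 0.286 and 1.81 ± 0.306 FPKM, a log2 change of -0.54 (limma adjusted p = 0.00211) that turned to 0.88 after marker scaling. The Idi1 and Pmvk calls were lost with KLF10AKO replicate 4 alone (-0.32 and -0.65, limma adjusted p = 0.111 and 0.0725), a fit with 1 library in that group in which Pmvk was no smaller, and 15.8% of the 100-base stretches of Idi1 occur in other genes.

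From the isoprenoids to lanosterol, with the side branch of Ggps1 counted in, 2 of the 4 tested enzymes fell. The 1 that rose was Ggps1. Fdft1, squalene synthase, stood at 15.6 ± 1.98 FPKM in WT, against 8.88 ± 1.83 in KLF10AKO, and Lss, which closes the ring to lanosterol, at 2.41 ± 0.197 and 1.3 ± 0.118 (SD, n = 4 each). Their log2 changes were -0.80 and -0.69 (limma adjusted p = 8.77e-04 and 8.32e-05), turning to 0.79 and 0.65 after marker scaling. Exons of the protease gene Ctsb on the opposite strand cover 18.3% of Fdft1. Ggps1, which diverts isoprenoids to geranylgeranyl for protein anchors, rose by 0.21 (8.17 ± 0.481 to 9.52 ± 0.461 FPKM, limma adjusted p = 0.0130), and by 1.80 after marker scaling, but stood at 0.05 and did not pass with quantile normalization, nor with KLF10AKO replicate 4 alone, where it was no smaller (0.29, adjusted p = 0.0520). Sqle, the epoxidase often counted a rate-limiting step, stood at 1.65 ± 0.308 and 1.42 ± 0.188 FPKM. Its log2 change of -0.16 (95% interval -0.44 to 0.12, limma adjusted p = 0.267) did not pass, and rested on 116 to 174 reads per library. With quantile normalization Sqle passed at -0.49, and with marker scaling at 1.20. Fdps, farnesyl diphosphate synthase, was read at 0.143, 0.171, 0.158 and 0.243 FPKM in the WT libraries and at 0.175, 0.313, 0.236 and 0.283 in KLF10AKO. Its groups overlapped on only 9 to 25 reads per library, and 21.4% of its 100-base stretches occur in other genes. Exons of the protein-coding gene Gm43738 on the same strand cover 26.7% of Fdps, so its level is uncertain.

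Between lanosterol and cholesterol 7 of 8 enzymes fell, at a median of -0.40 for the 8 that turned to 1.06 after marker scaling, beside 34.9% of all genes lower and medians over all genes of 0.05 and 1.55. Sc5d (ENSMUSG00000032018, chromosome 9, 42251595 to 42264256, minus strand), the desaturase of the sterol ring, stood at 34.3, 33.1, 36.4 and 32.9 FPKM in the WT libraries and at 13.7, 13.3, 14.5 and 11.9 in KLF10AKO. Both groups were tight and far apart. Of all 29 genes Sc5d had the lowest adjusted p, 3.96e-07 by limma, at a log2 change of -1.33 (standard error 0.0696) that turned to 0.28 after marker scaling. Dhcr7 (ENSMUSG00000058454, chromosome 7, 143823145 to 143848410, plus strand), the reductase that acts right after Sc5d, stood at 1.90, 1.59, 1.57 and 2.07 FPKM in the WT libraries and at 2.76, 2.93, 2.82 and 3.03 in KLF10AKO. All knockout libraries were above all WT libraries. Dhcr7 rose by 0.57 (standard error 0.0905, limma adjusted p = 3.71e-04), and by 2.06 after marker scaling.

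Nsdhl, a dehydrogenase of the sterol demethylation complex, stood at 11.1 ± 1.47 FPKM in WT, against 4.27 ± 0.663 in KLF10AKO (SD, n = 4 each), a log2 change of -1.29 (limma adjusted p = 1.35e-05) that turned to 0.25 after marker scaling. Its partners in that complex changed less in the deposited FPKM and more after marker scaling. Msmo1, the oxidase, was at -0.35 and Hsd17b7, the ketoreductase, at -0.38 (1.12 and 1.01 after marker scaling). Cyp51, the lanosterol demethylase, was at -0.41, Tm7sf2, a sterol C14 reductase, at -0.45, and Ebp, the sterol isomerase, at -0.24, turning to 1.11, 0.92 and 1.37 after marker scaling. Limma adjusted p for these 5 genes ran from 0.00138 for Tm7sf2 to 0.0109 for Msmo1. Exons of the protein-coding gene Vps51 on the same strand cover 12.1% of Tm7sf2. With TPM the calls of Cyp51, Msmo1, Hsd17b7 and Ebp were lost, at -0.23, -0.19, -0.25 and -0.04. The median of all genes tested was 0.248 with TPM and 0.05 with the deposited FPKM. These genes also did not pass with KLF10AKO replicate 4 alone, at -0.34, -0.49, -0.37 and -0.17. That fit has 1 library in its knockout group, and the change of Msmo1 was no smaller in it.

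For moving cholesterol inside the cell, the paired lysosomal exporters differed. Npc2 (ENSMUSG00000021242, chromosome 12, 84754562 to 84773152, minus strand), a soluble protein that takes cholesterol out of the lysosome, stood at 206, 206, 212 and 190 FPKM in the WT libraries and at 97.1, 95.5, 108 and 85.4 in KLF10AKO. Every knockout library lay well under every WT library. Npc2 fell by 1.08 (standard error 0.0808, limma adjusted p = 3.17e-06), a change that turned to 0.56 after marker scaling. Npc1, its membrane partner, stood at 4.62, 4.26, 4.92 and 5.27 FPKM in the WT libraries and at 4.4, 4.47, 5.17 and 3.91 in KLF10AKO. The groups overlapped through most of their range. The log2 change of Npc1 was -0.08 (95% interval -0.29 to 0.13, limma adjusted p = 0.453), 0.11 with TPM, where it did not pass, -0.32 with quantile normalization (adjusted p = 0.00974) and 1.46 after marker scaling, so its direction followed the scaling. Stard4, a carrier of sterol between membranes, was at 2.62 ± 0.556 and 3.10 ± 0.322 FPKM and did not pass (log2 change 0.22, 95% interval -0.08 to 0.51, limma adjusted p = 0.155). Stard4 passed with TPM (0.44), after marker scaling (1.72) and without WT replicate 2 (0.33, adjusted p = 0.0251), and stood at -0.06 with quantile normalization.

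Soat1 (ENSMUSG00000026600, chromosome 1, 156424525 to 156474331, minus strand), which esterifies cholesterol for storage and is the main such enzyme of macrophages, stood at 1.70, 2.01, 1.86 and 2.16 FPKM in the WT libraries and at 4.56, 4.88, 5.08 and 5.15 in KLF10AKO. The highest WT library was far below the lowest knockout library. Soat1 rose by 1.16 (standard error 0.079, limma adjusted p = 1.78e-06), and by 2.71 after marker scaling.

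The 3 LXR-regulated genes went different ways. Abca1 (ENSMUSG00000015243, chromosome 4, 53030787 to 53159895, minus strand), the pump that loads cholesterol onto apolipoprotein A-I, stood at 27.5, 27.9, 29.2 and 25.5 FPKM in the WT libraries and at 17.7, 18.2, 18.5 and 17.8 in KLF10AKO. The knockout libraries were all but equal and lay below all WT libraries. Its log2 change was -0.59 (standard error 0.0545, limma adjusted p = 1.12e-05), turning to 1.02 after marker scaling. Abcg1 (ENSMUSG00000024030, chromosome 17, 31057698 to 31115777, plus strand), which passes cholesterol on to HDL particles, stood at 22.7, 22.4, 22.8 and 24.6 FPKM in the WT libraries and at 26.4, 27.7, 25.0 and 29.4 in KLF10AKO. The groups were apart by a narrow gap. Abcg1 rose by 0.22 (standard error 0.0637, limma adjusted p = 0.0112), and by 1.85 after marker scaling. Mylip (ENSMUSG00000038175, chromosome 13, 45389742 to 45412022, plus strand) stood at 26.8 ± 1.66 FPKM in WT, against 41.9 ± 2.84 in KLF10AKO (SD, n = 4 each). It rose by 0.63 (standard error 0.0701, limma adjusted p = 3.80e-05), and by 2.27 after marker scaling.

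**Figure D3:**
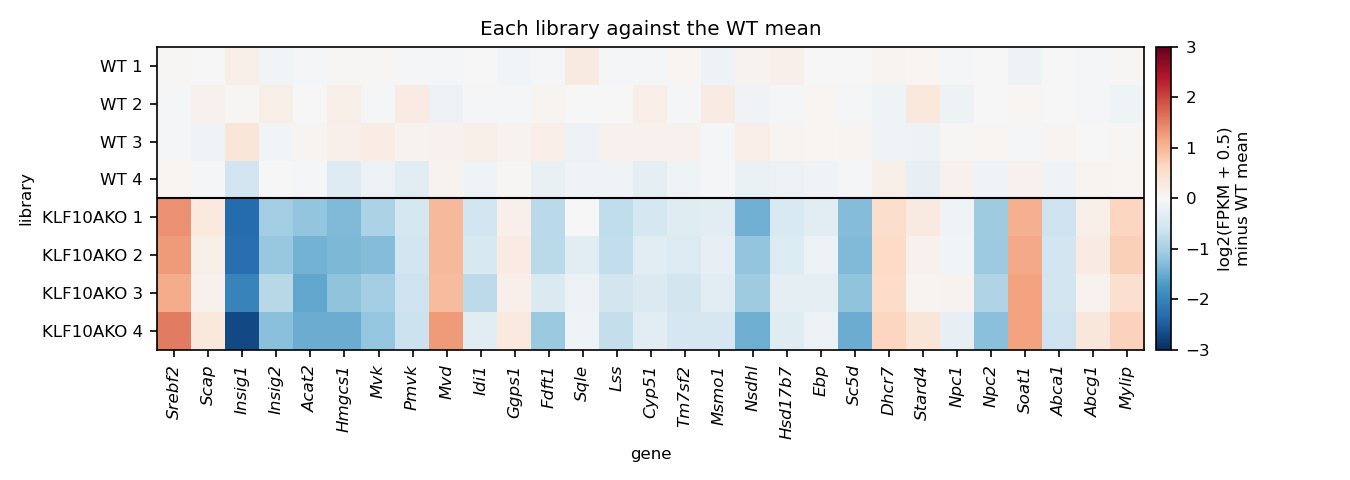
Log2(FPKM + 0.5) of the 29 tested genes (columns, by role) in each library (rows) as the difference from the WT mean, on a colour scale from -3 to 3. The 4 KLF10AKO rows have mean differences of -0.82 to -0.98 over the 18 genes called lower, a sign fixed by choosing genes on these same libraries. WT replicate 4 stands at -0.18 over the same genes.

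WT replicate 4 had the lowest value of its group for 16 of the 18 sterol genes called lower in KLF10AKO, and for 13 of the 14 enzymes among them. Over all 5588 genes called lower it was the lowest WT library for 33%. It had the highest WT value for 5 of the 8 sterol genes called higher, and for 29.3% of all genes called higher. This library also had the lowest WT sums of adipocyte markers (15794 FPKM), T and NK cell markers (5.31) and fat pad progenitor markers (245). Its sums of B cell (4.72), trophoblast (71.9), skeletal muscle (219) and lipid-associated macrophage markers (252) were the highest of the WT group. The B cell sums were low in every WT library, at 3.01 to 4.72 FPKM. The part of these sums in the pattern was not tested. Without WT replicate 4, 18 genes were still lower and 8 higher. Among the knockout libraries replicate 4 had the highest value for 7 of the 8 genes called higher and the lowest for 9 of the 18 called lower, where over all genes called it was the highest for 67.3% and the lowest for 55.3%, and it had both the lowest adipocyte sum (5352 FPKM) and the highest B cell sum (1796 FPKM) of its group. The spread between libraries was similar in both groups, with a median coefficient of variation of 10.1% in WT and 8.39% in KLF10AKO over the 29 genes, and Insig1 in WT, at 25.5%, varied most.

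Ratios of 2 genes within a library do not depend on how that library was scaled, apart from the 0.5 FPKM added to each value, and 6 such ratios were compared. Insig1 stood at 13.0, 12.5, 16 and 7.55 times the FPKM of Srebf2 in WT replicates 1 to 4 and at 0.870, 0.939, 1.28 and 0.565 times in KLF10AKO replicates 1 to 4. The FPKM of the brake thus exceeded that of the factor in every WT library, and was near or below it in the knockout libraries. The log2 ratio fell by 3.66, 12.6-fold. The ratio of Hmgcs1 to Srebf2 was 7.50, 8.79, 8.78 and 5.51 in WT and 1.11, 1.14, 1.41 and 0.847 in KLF10AKO, a log2 difference of -2.68. For Insig1 to Insig2 it was 3.53, 2.63, 3.98 and 1.98 against 1.22, 1.32, 1.29 and 1.05, a log2 difference of -1.26. Insig1 was thus nearly level with Insig2 in the knockout libraries.

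Genes of successive or paired steps gave 3 further mRNA ratios. Dhcr7 stood at 0.0554, 0.0482, 0.0431 and 0.0630 times the FPKM of Sc5d in WT and at 0.202, 0.221, 0.194 and 0.255 times in KLF10AKO, a log2 difference of 1.90. The ratio of Npc1 to Npc2 was 0.0224, 0.0207, 0.0233 and 0.0277 in WT and 0.0453, 0.0468, 0.0478 and 0.0458 in KLF10AKO, a log2 difference of 1.00. Abca1 to Abcg1 went from 1.21, 1.24, 1.28 and 1.04 in WT to 0.669, 0.657, 0.742 and 0.605 in KLF10AKO, a log2 difference of -0.82, so the more abundant pump gene was Abca1 in every WT library and Abcg1 in every knockout library. The 6 pairs were chosen with earlier results known. For Insig1 to Srebf2, Hmgcs1 to Srebf2, Dhcr7 to Sc5d and Abca1 to Abcg1 the genes were already separated in opposite directions, which fixes that the ratios do not overlap, so these 4 are descriptions. Npc1 to Npc2 is a description too, since the levels of the 2 genes given above leave no room for the ratios to overlap. For Insig1 to Insig2 the levels given above leave almost no room for overlap, so it too is best read as a description. Its exact two-sided permutation p was 0.0286, the lowest that 4 against 4 allows. The adjusted p of 0.0286 over the 6 ratios adds nothing, since the other ratios were fixed by the levels. A ratio in whole tissue compares 2 genes over all its cells, and the cell types that differed between the groups were not separated.

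**Figure D4:**
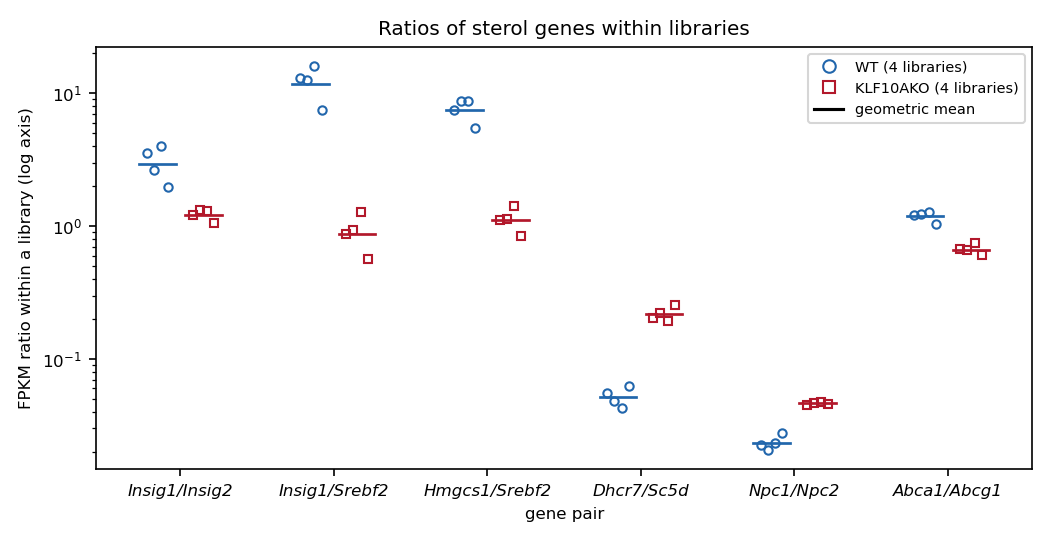
Ratio of the FPKM of 2 sterol genes within each library (log axis) for 6 gene pairs, in 4 WT libraries (circles) and 4 KLF10AKO libraries (squares), with geometric means as bars. The groups do not overlap in any pair, and the widest gap is that of Insig1 to Srebf2, 7.55 to 16 in WT and 0.565 to 1.28 in KLF10AKO.

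Other sterol genes, from lists that hold none of the 30, were also split. Of 41 tested, 13 rose and 20 fell, at a median log2 change of -0.18 that turned to 1.37 after marker scaling, where 38 rose and 0 fell. Over all genes tested 39.4% rose and 34.9% fell at a median of 0.05, and after marker scaling 87.4% rose and 1.25% fell at a median of 1.55. Among 13 genes of regulation 3 rose and 7 fell. Srebf1, the sister factor gene that drives fatty acid synthesis, stood at 56.7, 59.7, 53.0 and 57.6 FPKM in the WT libraries and at 25.6, 25.3, 27.3 and 25.6 in KLF10AKO. Its log2 change was -1.11 (limma adjusted p = 3.06e-07), opposite to that of Srebf2, and 0.51 after marker scaling. The LXR genes also parted, Nr1h3 (LXR alpha) at 45.7 ± 1.70 and 20.2 ± 2.25 FPKM and Nr1h2 (LXR beta) at 29.1 ± 1.54 and 35.3 ± 2.10 (SD, n = 4 each), log2 changes of -1.16 and 0.27 that were 0.46 and 1.90 after marker scaling. This pair was named after its values were seen.

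Of 5 further synthesis genes 4 fell and 1 rose, beside 34.9% and 39.4% of all genes. Lbr, a protein of the inner nuclear membrane that carries the same sterol C14 reductase activity as Tm7sf2, stood at 6.29, 6.13, 6.79 and 5.88 FPKM in the WT libraries and at 18.2, 19.2, 16.7 and 20.4 in KLF10AKO. It rose by 1.50 (limma adjusted p = 2.85e-07), and by 3.12 after marker scaling, while Tm7sf2 was lower. Pgrmc1, a haem-binding partner of sterol enzymes, was at 94.6 ± 2.52 and 45.6 ± 2.69 FPKM, a log2 change of -1.05 (limma adjusted p = 6.13e-07) and 0.59 after marker scaling. Of 7 genes of lipoprotein uptake and ester breakdown 4 fell and 2 rose, and Lrp1, an endocytic receptor of the LDL receptor family, went from 49.2 ± 5.13 to 15.6 ± 1.80 FPKM (log2 change -1.63, limma adjusted p = 9.01e-07), a difference of -0.01 after marker scaling. Of 9 intracellular transport genes 3 rose and 4 fell.

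Of 7 genes of export, esterification and oxysterol making, 4 rose and 1 fell, beside 39.4% and 34.9% of all genes. Abca7, a relative of Abca1, went from 5.27 ± 0.296 to 17.9 ± 2.72 FPKM (SD, n = 4 each), up by 1.67 (limma adjusted p = 1.05e-06) and by 3.28 after marker scaling. Ch25h makes 25-hydroxycholesterol, a sterol that holds SREBP back through INSIG. It stood at 0.446, 0.134, 0.444 and 0.252 FPKM in the WT libraries and at 4.41, 3.75, 2.65 and 5.08 in KLF10AKO. All knockout libraries were far above the WT libraries, and the log2 change was 2.44 (limma adjusted p = 5.88e-06), 3.97 after marker scaling. The WT values rested on 9, 3, 9 and 5 reads and lay under the 0.5 FPKM added to each value, so the size of this change is uncertain. In the same libraries the B cell markers had summed levels of 1212 to 1796 FPKM in KLF10AKO and 3.01 to 4.72 in WT, and their part in the Ch25h change was not tested.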

How the data were processed

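Values are the authors' FPKM, deposited as 1 column per library with gene lengths; the 8 columns were matched to the labels by name. The submitters' processing notes name mm10, HISAT2 2.0.5, edgeR 3.22.5 and featureCounts 1.5.0-p3. What each tool did, which annotation was counted and whether strand was used: not given in the sources used here. RNA was poly(A)-selected, per the labels' protocols. Multiplied by gene length, 100% of values were whole multiples of 1 step in each library (within 0.01 of a read), which gives reads and depth. Against the size that this step implies, total reads were 1.05 to 1.09 times as many for WT and 0.901 to 0.939 times for KLF10AKO.

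WT and KLF10AKO were compared in R 4.3.3 by limma 3.58.1 (lmFit, eBayes with trend) on log2(FPKM + 0.5) of all 16012 genes with a mean of at least 0.5 FPKM, with no covariate. Two-sided p-values were adjusted over all genes tested (Benjamini-Hochberg, threshold 0.05). Fold changes on this scale are understated for genes of low level. Single genes and ratios had exact two-sided permutation tests (scipy 1.17.1). The fit was tested on data simulated from the WT means and spread, with 99 genes changed 2-fold and 99 changed 1.5-fold. It found 90.9% and 54.5% of these, and 2.7% of its calls were false. The simulation did not mimic the real data, where 74.3% of all genes were called.

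Alternatives were TPM, quantile normalization, scaling to 16 adipocyte markers, eBayes without trend, robust eBayes, a minimum of 2 FPKM or none, a pseudocount of 1 or 0.1, the replicate number as a block, leaving out each library, and KLF10AKO replicate 4 as sole library, assumed to vary like WT. Count models were planned as alternatives and are not reported, since the deposited unit is FPKM. Genes, lists and alternatives were chosen with earlier results of these data known. Values in every library are printed for the control genes, the genes of the ratios and the 3 genes of lowest adjusted p in each direction, Fdps being added as the gene under the filter. Of the other sterol genes the 3 of lowest p in each direction are named. Gene identifiers matched GENCODE M21 (mm10) in 99.9% of cases, 98.3% of those with the same coordinates. Of the 30 genes, 10 overlap exons of another gene, 6 of them exons of a protein-coding gene. Promoters came from RefSeq, with no chance test of motifs. Of the listed other genes, Faxdc2 was not analysed here and Abcg4 was under the filter.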

Additional observations from a re-analysis of the deposited data

Results flagged for a closer look

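In 2 of 60 groups of 4 libraries a value stood apart from the other 3 by a gap wide against the whole range of the group, and chance alone gives about 1 in 20. Mvd stood at 10.9 FPKM in KLF10AKO replicate 4 and at 8.57 to 8.81 in the other knockout libraries. Mylip stood at 24.3 FPKM in WT replicate 2 and at 27.5 to 27.9 in the other WT libraries. Both genes were called higher in KLF10AKO with each library left out in turn.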

How the results depend on the processing

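The counts of sterol genes called higher (8) and lower (18) turned with scaling to adipocyte markers, to 27 and 1. Under that scaling the direction reversed for Insig2 (0.54), Acat2 (0.18), Hmgcs1 (0.28), Mvk (0.44), Pmvk (1.03), Idi1 (0.88), Fdft1 (0.79), Sqle (1.20), Lss (0.65), Cyp51 (1.11), Tm7sf2 (0.92), Msmo1 (1.12), Nsdhl (0.25), Hsd17b7 (1.01), Ebp (1.37), Sc5d (0.28), Npc1 (1.46), Npc2 (0.56) and Abca1 (1.02). It rescales all genes by the adipocyte marker change, which moved the median of all genes tested from 0.05 to 1.55. Npc1 reversed with TPM (0.11) and Stard4 with quantile normalization (-0.06). The median of all genes tested was 0.248 with TPM and -0.158 with quantile normalization, beside 0.05 with the deposited FPKM. The part of these shifts in the 2 reversals was not tested. With a minimum of 2 FPKM, 8 were higher and 15 lower on fewer genes. Leaving out each library gave 7 to 9 higher and 18 lower. Same-numbered libraries did not deviate together (correlations 0.003 to 0.031), and with the replicate block 8 were higher and 18 lower. Both pseudocounts, no filter and both eBayes settings also gave 8 and 18. The planned count models are not reported, since the deposited unit is FPKM. The log2 ratio differences kept their direction in every alternative run, but their exact p rose from 0.0286 to 0.125 with the replicate block (sign flips within pairs) and to 0.0571 with any library left out, the lowest those designs allow. With the block they were -1.26 for Insig1 to Insig2, -3.66 for Insig1 to Srebf2, -2.68 for Hmgcs1 to Srebf2, 1.90 for Dhcr7 to Sc5d, 1.00 for Npc1 to Npc2 and -0.82 for Abca1 to Abcg1. With each library left out they ran, in the same order, from -1.45 to -1.11, -3.87 to -3.45, -2.83 to -2.55, 1.83 to 1.98, 0.94 to 1.07 and -0.88 to -0.77. Fdps had the fewest reads of the 30 genes, at 9 to 25 per library.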
